A study of Mus musculus with 12 samples.

Results

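Transcripts of 10 genes of the Notch pathway were read in group 2 innate lymphoid cells (ILC2s), lymphocytes that make type 2 cytokines without a rearranged antigen receptor. The genes were the ligands Jag1 and Jag2, the receptors Notch1 and Notch2, the protease gene Adam10, the nuclear factors Rbpj and Maml1, and the pathway targets Hes1, Dtx1 and Nrarp. They were chosen by name out of 29542 genes, with the lower Jag1 level of knockout-labelled cells already known, so the Jag1 genotype values below are a description without a test. Of the 10 genes, 9 passed the filter on low counts, as did 14431 genes in all; Jag2 did not pass.

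The cells came from mixed bone marrow chimeras on the C57BL6 background. CD45.1 hosts were given 950 cGy and then equal parts of marrow from CD45.2 Rag1-/- donors and CD90.1 wild-type (WT) donors, so ILC2s of both genotypes grew in the same hosts; antibiotic drinking water was given around the transplant. All mice received IL-33, a cytokine that expands ILC2s, for 7 days at 30 ng in each cheek and 240 ng in the peritoneum, and the cells were sorted from skin-draining lymph nodes. The 4 groups, of 3 libraries each, were WT and knockout-labelled cells at 8 weeks and at 20 weeks after transplant. The labels do not say whether the replicates of a group are separate animals; p-values here cover the spread among the libraries, which may be technical. Host cells that survived irradiation carry CD45.1, and the labels do not give the sort gates.

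Notch signalling passes between touching cells. A ligand of the Jagged or Delta-like family on a sending cell binds a Notch receptor on a receiving cell, ADAM10 and then gamma-secretase cut the receptor, and its freed intracellular domain joins RBPJ and a Mastermind protein in the nucleus to switch on targets such as Hes1 and Nrarp. In lymphocytes the pathway is best known for directing progenitors to the T cell fate, and it also acts in the development of innate lymphoid cells.

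Summed estimated reads were 11433625 to 32529806 per library. WT replicate 2 at 8 weeks was the shallowest and stood apart on the first principal component. Knockout-labelled replicate 3 at 8 weeks stood apart on the second, and its 10 most abundant genes held 24.5% of reads, against 8.85% to 15.0% elsewhere. Rag1 was at 0 in all 6 WT libraries and reached 0.995 CPM (counts over library size, scaled by TMM) in knockout-labelled ones, which goes against the labels' direction; the deleted part of Rag1 is not given in the labels. Rag2, its partner in antigen receptor rearrangement, spanned 1.18 to 6.15 CPM in WT and 1.94 to 3.69 CPM in knockout-labelled libraries. Thy1, which encodes CD90, was at 2.94 to 5.68 CPM in WT and 16.8 to 37.8 CPM in knockout-labelled libraries. Ddx3y, a Y-linked gene, was at 101 to 113 CPM in each WT library of 20 weeks and at most 1.90 CPM in the other 9 libraries, so at 20 weeks genotype and this signal cannot be told apart. ILC2 markers summed to 3944 to 5851 CPM, and all 12 of them reached 1 CPM in every group.

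Jag1 (ENSMUSG00000027276, chr2:137081456-137116644, minus strand, GRCm38) encodes Jagged-1, a membrane ligand of Notch receptors. At 8 weeks its level was 26.3, 56.7 and 17.2 CPM in WT and 2.36, 3.30 and 4.01 CPM in knockout-labelled libraries. By 20 weeks it was 7.11, 14.7 and 12.8 CPM in WT and 1.11, 1.48 and 1.70 CPM in knockout-labelled libraries. Every knockout-labelled library lay below every WT library, and all 4 groups were free of overlap, in the order WT at 8 weeks, WT at 20 weeks, knockout-labelled at 8 weeks, knockout-labelled at 20 weeks.

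**Figure D1:**
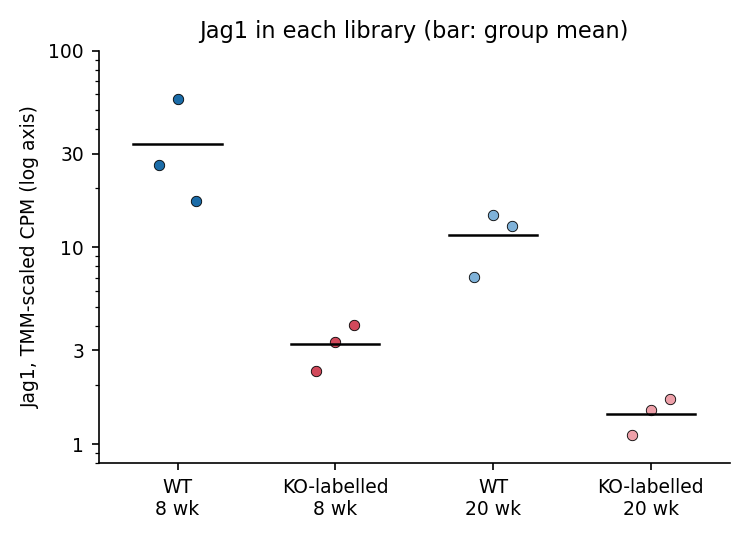
Jag1 level in each of the 12 libraries, as TMM-scaled CPM on a log axis; dots are libraries and bars are group means (n = 3). The 6 knockout-labelled (KO-labelled) libraries sit between 1.11 and 4.01 CPM and the 6 WT libraries between 7.11 and 56.7 CPM.

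The mean WT level was 10.4 times the mean knockout-labelled level at 8 weeks and 8.06 times at 20 weeks. The lowest WT library was still 4.29 times the highest knockout-labelled one at 8 weeks and 4.19 times at 20 weeks. On the scale of log2(CPM + 0.5), the mean knockout-labelled level minus the mean WT level was -3.04 (SE 0.53, n = 3 per group) at 8 weeks and -2.59 (SE 0.33, n = 3 per group) at 20 weeks. Across the 14431 genes, 383 (2.65%) had knockout-labelled libraries wholly below WT at 8 weeks, 880 (6.1%) at 20 weeks and 27 (0.187%) when all 6 were set against all 6. In the 6 libraries of 8 weeks Ddx3y was at most 1.56 CPM. On deposited TPM with the same added constant the log2 value at 20 weeks was -1.89. In bulk samples such as these, fewer Jag1-expressing cells and less Jag1 RNA per cell cannot be told apart.

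Time after transplant gave Jag1 values in the same direction for both genotypes. Jag1 was chosen for its genotype difference, which rests on the same libraries, so the p-values with time are not independent of that choice. The fitted log2 change from 8 to 20 weeks was -1.54 (SE 0.42) in WT, with an adjusted p of 0.16 in edgeR's quasi-likelihood test. In knockout-labelled cells it was -1.15 (SE 0.44), with an adjusted p of 0.53. Neither passed the threshold of 0.05. The 20-week libraries lay wholly below those of 8 weeks within both genotypes, as they did for 9.04% of all genes in WT and 8.15% in knockout-labelled cells. DESeq2 put the change in WT at an adjusted p of 0.017, 1 of 498 calls (3.67%) it made in that contrast. Without WT replicate 2 of 8 weeks the WT estimate was -0.93. Without WT replicate 3 of 8 weeks it was -1.87, with an adjusted p of 0.043. The difference between the genotypes in their change with time was 0.39 (SE 0.61, adjusted p = 1.00), with a 95% interval of -0.93 to 1.71, so a genotype difference that moves with time was not detectable with these libraries.

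Nearly all Jag1 reads fell on the full-length coding transcript. Of the 2 transcript models, Jag1-201 (ENSMUST00000028735, 5612 bases) held 99.4% to 100% of Jag1 reads in each library, from 38.6 to 599 estimated reads. Jag1-202, a model with a retained intron, had 3.72 estimated reads in 1 WT library of 8 weeks and was at 0 in the other 11. The lower Jag1 level of knockout-labelled cells was thus a lower level of the coding model.

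The bases before the annotated start of Jag1 are shown because this is the gene whose level differs. They are chr2:137116645-137116770 (minus strand, GRCm38), from the RefSeq promoter window, and stop where the GENCODE gene begins.
Jag1 promoter: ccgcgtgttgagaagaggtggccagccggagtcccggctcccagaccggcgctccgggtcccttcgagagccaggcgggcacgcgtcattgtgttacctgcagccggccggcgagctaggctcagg
The 300-base windows of the 9 members with an entry, 10 windows in all, were searched for TGGGAA, the core letters that RBPJ binds, on both strands (TTCCCA on the other). The letters were in 25.6% of all 32851 such windows. Among the members they were found in the 2 windows of Rbpj itself, which overlap each other. None of the Jag1, Jag2, Notch1, Notch2, Dtx1, Maml1, Adam10 and Nrarp windows held them. A count of 2 of 10 windows is near the share over all windows and is not a result about the members. Hes1 was the member without an entry.

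Jag1 was the ligand with reads to measure. Jag2 (chr12:112907819-112929776), the other Jagged ligand, was at 0 in 10 of 12 libraries and reached 5.61 estimated reads in 1 WT library and 7.27 in 1 knockout-labelled library, both at 20 weeks. Of the Delta-like ligands, Dll1 reached 1.08 CPM, Dll3 reached 0.43 CPM and Dll4 was at 0 in all 12 libraries. Dlk1 and Dlk2, related membrane proteins that lack the domain by which ligands activate Notch, were also at 0 in all 12. Dll1 was the only ligand besides Jag1 to pass the filter; its fitted log2 genotype difference was 0.43 with an SE of 1.21, too wide to place it.

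Notch2 was the most abundant receptor on a per-length scale. Deposited TPM (transcript abundance per length) was 42.4 to 219 for Notch2, 4.48 to 8.25 for Notch1, 0.25 to 1.23 for Notch4 and at most 0.080 for Notch3, which was at 0 in 8 of 12 libraries. The TPM of Notch2 was 6.87 to 43.6 times that of Notch1 in the same library; both ends of this range lay in the knockout-labelled libraries of 8 weeks, and the other 3 groups spanned 11.3 to 15.9 times. Against the ligand, Notch2 TPM was 10.6 to 16.6 times that of Jag1 in WT at 8 weeks and 88.0 to 262 times in knockout-labelled cells at 8 weeks. By 20 weeks this ratio was 19.4 to 35.3 in WT and 150 to 333 in knockout-labelled cells.

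**Figure D2:**
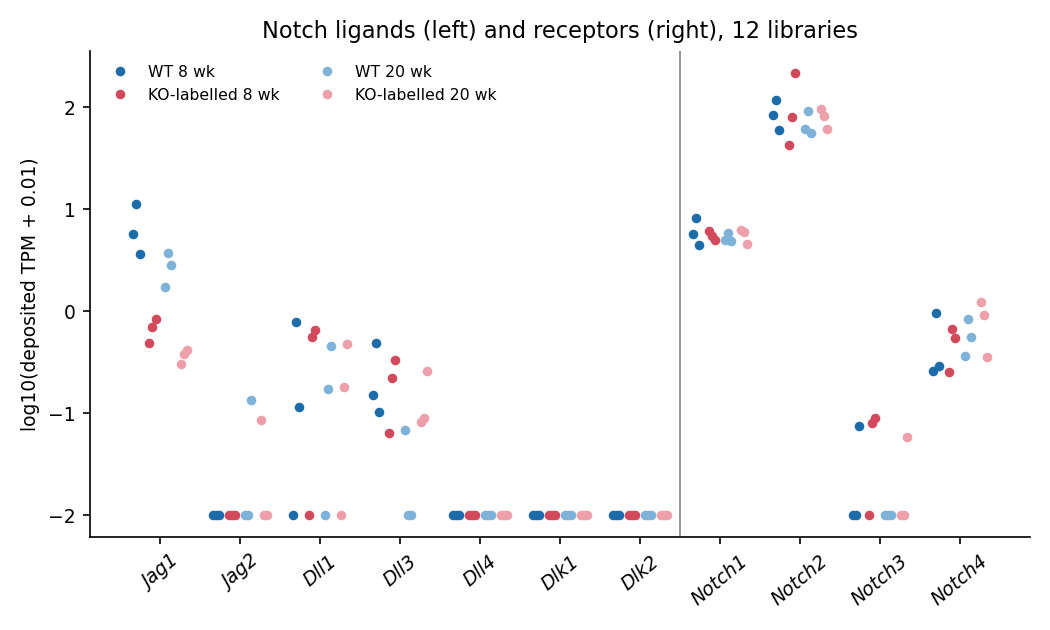
Levels of 7 ligand genes and related genes (left) and 4 receptor genes (right) in 12 libraries, as log10(deposited TPM + 0.01), so a gene at 0 sits at -2; each dot is a library, coloured by group. Notch2 is the highest in every library, Jag1 is the highest ligand in the WT libraries, and Dll4, Dlk1 and Dlk2 are at 0 throughout.

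No genotype difference of a receptor passed the test. Notch1 (chr2:26457903-26516663) was at 35.8, 67.7 and 34.1 CPM in WT and 47.1, 43.8 and 37.4 CPM in knockout-labelled libraries at 8 weeks. The 20-week values were 31.9, 37.0 and 30.9 CPM in WT and 34.4, 36.1 and 25.4 CPM in knockout-labelled libraries. The genotypes overlapped at both times, and the single high value belonged to WT replicate 2 of 8 weeks, the library with the most Jag1. The log2 genotype difference averaged over both times was -0.08 (SE 0.18), with a 95% interval of -0.48 to 0.32.

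Notch2 (chr3:98013527-98150361) was at 737, 1126 and 535 CPM in WT and 390, 714 and 1973 CPM in knockout-labelled libraries at 8 weeks. Its levels at 20 weeks were 470, 687 and 465 CPM in WT and 694, 620 and 477 CPM in knockout-labelled libraries. The highest value came from knockout-labelled replicate 3 of 8 weeks, which stood apart in the principal components, and the genotypes overlapped at both times. The averaged difference was 0.25 (SE 0.34, 95% interval -0.48 to 0.98), and it was -0.19 without that library.

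**Figure D3:**
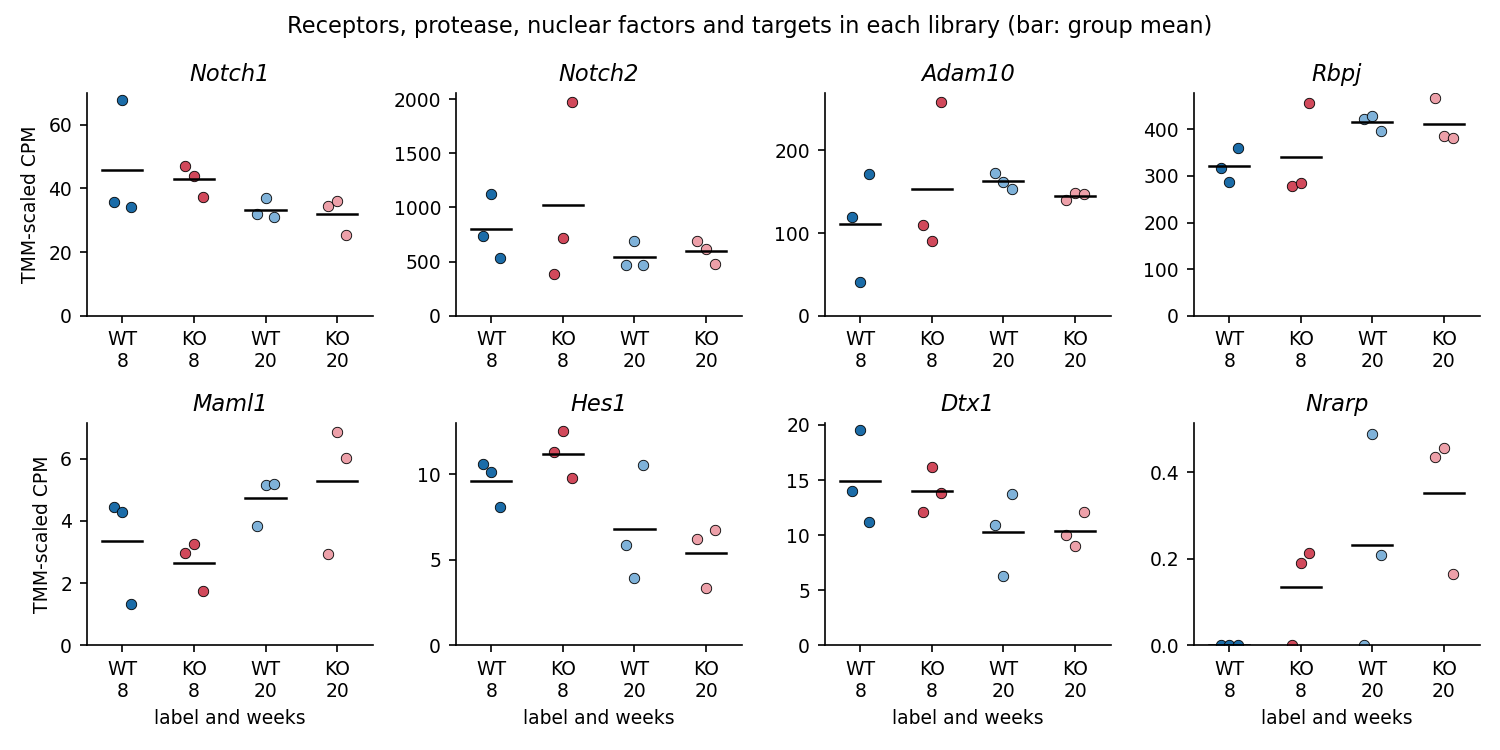
Levels of 8 members other than the ligands in each library, as TMM-scaled CPM on linear axes that start at 0; dots are libraries, bars are group means (n = 3), and KO stands for knockout-labelled. WT and knockout-labelled dots overlap in each panel at each time, with 1 exception, Adam10 at 20 weeks.

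Adam10 (chr9:70678997-70780229), the protease that makes the first cut in a ligand-bound receptor, was at 120, 41.0 and 172 CPM in WT and 110, 90.1 and 258 CPM in knockout-labelled libraries at 8 weeks. The libraries of 20 weeks gave 172, 161 and 154 CPM in WT and 140, 148 and 147 CPM in knockout-labelled libraries. The knockout-labelled libraries of 20 weeks were all below WT, as for 6.1% of all genes, while those of 8 weeks overlapped with WT. The fitted log2 difference at 20 weeks was -0.16 (SE 0.45, adjusted p = 1.00), and the averaged one was 0.15 (SE 0.32, 95% interval -0.54 to 0.84). Without both 8-week libraries that stood apart, the averaged value was -0.34 with an adjusted p of 0.40.

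Rbpj (chr5:53466152-53657362) encodes the DNA-binding partner of the freed Notch domain. It was at 316, 286 and 361 CPM in WT and 279, 285 and 457 CPM in knockout-labelled libraries at 8 weeks. In the later libraries it was at 423, 428 and 397 CPM in WT and 467, 385 and 381 CPM in knockout-labelled libraries. Its averaged difference was 0.03 (SE 0.15, 95% interval -0.29 to 0.36), the narrowest interval among the members. Processed copies of Rbpj exist elsewhere in the mouse genome, so its reads may be divided between gene and copies.

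The reads of Rbpj were divided among 3 coding models that begin with different exons, and this division varied more than the gene's total. The first coding bases of the 3 models are shown because they are what the models do not share; capitals mark the start codon, and positions are on the plus strand of GRCm38.
Rbpj-202, chr5:53555890-53555903: ATGttggcctatag
Rbpj-201, chr5:53590350-53590409: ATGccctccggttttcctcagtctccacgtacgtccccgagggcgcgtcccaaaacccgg
Rbpj-203, chr5:53590705-53590724: ATGgcgcctgttgtgacagg
For Rbpj-201 the first 60 of its 137 first-exon coding bases are given. The window before the Rbpj-201 start, chr5:53590096-53590213, holds the RBPJ letters in capitals.
Rbpj promoter: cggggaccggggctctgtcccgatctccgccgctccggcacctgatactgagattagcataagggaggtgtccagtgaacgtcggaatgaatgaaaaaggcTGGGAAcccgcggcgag

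Rbpj-202 held 41.4%, 7.24% and 43.9% of Rbpj reads in WT and 49.5%, 51.2% and 63.1% in knockout-labelled libraries at 8 weeks. Rbpj-203 held 33.6%, 83.7% and 41.7% in WT and 26.9%, 20.8% and 30.7% in knockout-labelled libraries at 8 weeks. At 8 weeks, then, the knockout-labelled libraries were all higher for the first model and all lower for the second. Of 16256 transcripts with enough reads, 3.14% were wholly higher and 2.82% wholly lower in the same comparison. At 20 weeks the shares of Rbpj-202 were 83.7%, 65.4% and 34.1% in WT and 71.8%, 55.4% and 42.9% in knockout-labelled libraries, which overlap, and those of Rbpj-203 overlapped too. The models share most of their sequence, so these shares rest on few distinguishing k-mers and were not tested.

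**Figure D4:**
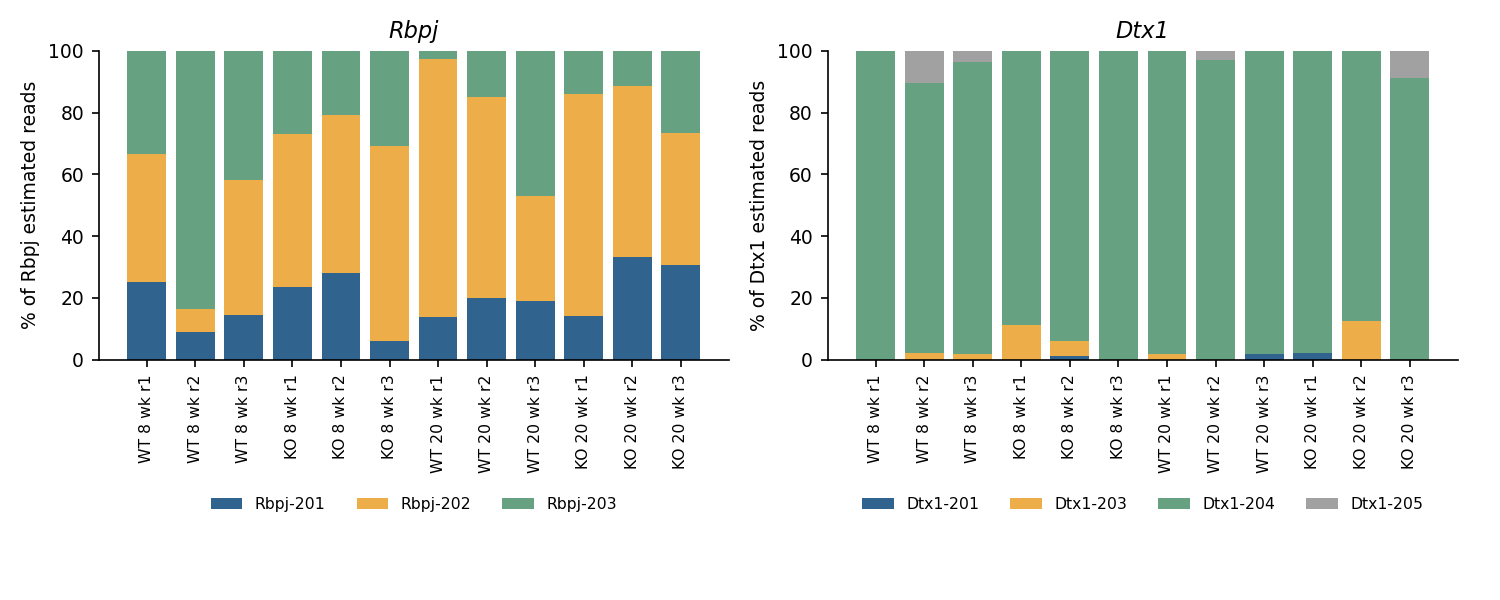
Share of the estimated reads of Rbpj (left) and Dtx1 (right) given to each transcript model, in percent, in each library; each bar is a library and the colours are models. Rbpj-203 takes 83.7% in WT replicate 2 of 8 weeks and 2.58% in WT replicate 1 of 20 weeks, while Dtx1-204 takes at least 87.5% of Dtx1 in every library.

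Maml1 (chr11:50255634-50292311), a Mastermind co-activator, was low. It was at 4.44, 4.28 and 1.33 CPM in WT and 2.96, 3.24 and 1.74 CPM in knockout-labelled libraries at 8 weeks. At 20 weeks the values were 3.84, 5.15 and 5.20 CPM in WT and 2.93, 6.86 and 6.03 CPM in knockout-labelled libraries. Its averaged difference was -0.08 (SE 0.33, 95% interval -0.81 to 0.64). Maml2, another Mastermind gene, had 21.8 to 204 times the TPM of Maml1 in the same library.

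For each of the 3 targets the genotypes overlapped at both times. Hes1 (chr16:30064384-30067796), a repressor and the classical Notch target, was at 10.6, 10.2 and 8.09 CPM in WT and 11.3, 12.6 and 9.79 CPM in knockout-labelled libraries at 8 weeks. Its later values were 5.90, 3.92 and 10.6 CPM in WT and 6.20, 3.37 and 6.72 CPM in knockout-labelled libraries. Its averaged difference was -0.05 (SE 0.26, 95% interval -0.61 to 0.51). In knockout-labelled cells all 3 libraries of 20 weeks lay below all 3 of 8 weeks, as for 8.15% of all genes; the fitted change was -1.05 (SE 0.37) with an adjusted p of 0.47.

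Dtx1 (chr5:120680202-120711927), which encodes the ubiquitin ligase Deltex-1, was at 14.0, 19.5 and 11.2 CPM in WT and 12.1, 16.2 and 13.8 CPM in knockout-labelled libraries at 8 weeks. Its 20-week level was 10.9, 6.28 and 13.7 CPM in WT and 10.1, 9.03 and 12.1 CPM in knockout-labelled libraries. Its averaged difference was -0.03 (SE 0.21, 95% interval -0.50 to 0.43). The gene's total hides that its reads were almost all given to a model annotated with a retained intron: Dtx1-204 held 87.5% to 100% of them. The coding model Dtx1-201 was at 0 in 9 of 12 libraries and never above 6.95 estimated reads. The boundary that sets Dtx1-204 apart is shown, chr5:120695083-120695142 on the minus strand, where capitals mark the AG that ends the intron and the bases after it are exon 3.
Dtx1-204 at exon 3: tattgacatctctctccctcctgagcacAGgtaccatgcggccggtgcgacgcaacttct
The first exon of Dtx1-204 runs through this boundary, with 291 intronic bases before exon 3. The models share most of their exons, so this division rests on the k-mers that differ between them.

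Nrarp (chr2:25180758-25183339), which encodes a feedback inhibitor of the Notch complex, was close to absent. It had 0 estimated reads in all 3 WT libraries of 8 weeks and 0, 3.97 and 2.62 in knockout-labelled ones. At 20 weeks it had 0, 12.7 and 2.88 in WT and 15.1, 15.6 and 3.88 in knockout-labelled libraries. The genotypes overlapped at both times at the value of 0 or above it, and no fold is given because a floor of 3 counts corresponds to 0.086 to 0.30 CPM, against at most 0.49 CPM measured.

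Of the 8 members tested besides Jag1, 0 were called for genotype averaged over both times, at 8 weeks, at 20 weeks or in the genotype by time interaction, at an adjusted p under 0.05 in edgeR's quasi-likelihood test. Calls among all 14431 genes were also few: 32 (0.222%) for the averaged contrast, 29 (0.201%) at 8 weeks, 8 (0.0554%) at 20 weeks and 14 (0.097%) in the interaction. A count of 0 of 8 is therefore near the background and is not a result about the members. At an unadjusted p under 0.05 the count was also 0 of 8 in each of these 4 contrasts, while 3.71% of all genes passed for the averaged contrast, 3.62% at 8 weeks, 2.08% at 20 weeks and 2.18% in the interaction; DESeq2 and limma-voom called 0 as well. The median log2 difference of the 8 was 0.00 in the averaged contrast, beside 0.01 over all genes. What the libraries could detect was limited: in simulated counts, 43.9% of genes changed by 1 on the log2 scale and 82.1% of those changed by 2 were called in that contrast. The changed genes were drawn from those with a mean above 1 CPM. The simulated libraries held no change with time, no pairing and no library that stood apart, so these shares are a rough guide.

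**Figure D5:**
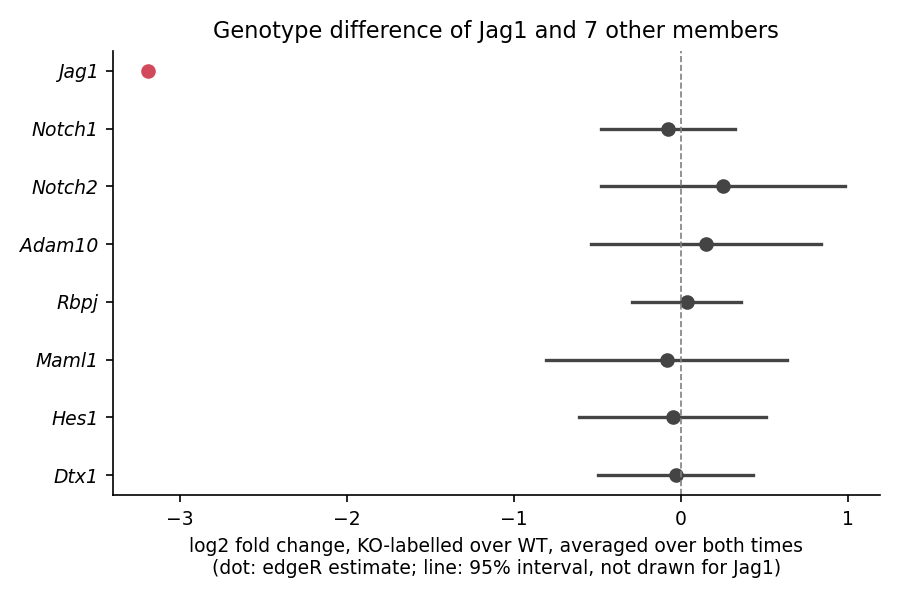
log2 fold change of knockout-labelled over WT cells, averaged over both times, for 8 members; dots are edgeR estimates and lines are 95% intervals, drawn for the 7 members other than Jag1. Jag1 lies at -3.19, and the intervals of the other 7, which all include 0, run from -0.81 to 0.98.

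The rest of the pathway gave no genotype call either. Of 53 further genes of the pathway's ligands, receptors, processing enzymes, glycosyltransferases, trafficking and ubiquitin ligases, nuclear partners and targets, 42 were tested. None of the 42 was called for genotype in any of the 4 contrasts by edgeR, DESeq2 or limma-voom. At an unadjusted p under 0.05 the counts were 0 for the averaged contrast, 2 at 8 weeks (Cdk8 higher and Hes7 lower, named after their values were seen), 0 at 20 weeks and 1 in the interaction (Hes7). The shares over all genes were 3.71%, 3.62%, 2.08% and 2.18% in the same order, so counts of 0 to 2 of 42 are near the background. The median averaged difference of the 42 was -0.06, beside 0.01 for all genes, and 40 of them lay within 0.5 of 0.

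By role, the averaged differences of the 5 glycosyltransferases ran from -0.09 to 0.11; Lfng, Mfng and Rfng among them add the sugars that tune which ligand a receptor answers. The 10 genes of receptor processing ran from -0.18 to 1.75, where the top value belonged to Aph1b, a gamma-secretase subunit gene at 0 in 4 of 12 libraries (SE 1.25). The 13 tested trafficking and ubiquitin ligase genes ran from -0.49 to 0.43, and the 12 tested nuclear genes from -0.28 to 0.25. Cdk8, a kinase of the Mediator complex, set the upper end of the nuclear list with 0.25 (SE 0.16). Of the 11 listed targets 7 were tested, and Hes5 and Hey2 were at 0 in all 12 libraries.

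Among 13 lymphoid genes linked to Notch in other cells, edgeR called 0 in the 4 genotype contrasts, and 0 passed its unadjusted p of 0.05 there. DESeq2 and limma-voom also called 0. Over all genes edgeR called 0.0554% to 0.222% in these contrasts, and 2.08% to 3.71% passed the unadjusted threshold. Counts of 0 of 13 are therefore near the background and are not a result about these genes. Il7r, which encodes the IL-7 receptor alpha chain, had the smallest p of the pathway and lymphoid lists in the averaged contrast, with a difference of -0.28 (SE 0.17, adjusted p = 1.00). Gata3, the transcription factor that defines ILC2s, differed by 0.24 (SE 0.21) and Tcf7, a Notch target in early T cells, by -0.14 (SE 0.12).

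The calls among these lists were with time after transplant. Over all genes edgeR also made more calls for time in WT, 74, against 8 to 32 in the genotype contrasts. It made 9 for time in knockout-labelled cells. Bhlhe40, a repressor that Notch can induce, was at 780, 708 and 790 CPM in WT at 8 weeks and 422, 411 and 400 CPM in WT at 20 weeks. It fell by 0.88 on the log2 scale (SE 0.16, adjusted p = 0.038), 1 call of 42, beside 74 calls among all genes (0.513%). This call was lost under 12 of 22 other settings, the replicate block included (adjusted p = 0.066), and the adjusted p went up to 0.59. Among these were the fits without WT replicate 1 of 8 weeks, knockout-labelled replicate 2 of 8 weeks, each WT replicate of 20 weeks, and knockout-labelled replicates 2 and 3 of 20 weeks, with adjusted p from 0.068 to 0.17. In knockout-labelled cells Bhlhe40 went from 639, 634 and 675 CPM to 454, 352 and 355 CPM, with a fitted value of -0.75 (SE 0.16) and an adjusted p of 0.22.

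Cdkn1a, a cell cycle inhibitor that p53 and Notch can both induce, was at 56.4, 85.7 and 55.6 CPM in WT at 8 weeks and 18.0, 15.1 and 12.8 CPM at 20 weeks. It fell by 2.10 on the log2 scale in WT (SE 0.24, adjusted p = 0.0012), 1 call of 13 lymphoid genes, beside 74 calls among all genes (0.513%). In knockout-labelled cells it went from 46.3, 60.1 and 75.8 CPM to 16.7, 17.3 and 18.3 CPM. There it fell by 1.80 (SE 0.24, adjusted p = 0.016), 1 call of 13, against 9 calls among all genes (0.0624%). The call in knockout-labelled cells was lost under 7 of 21 other settings. These were the fits without replicate 2 of 8 weeks and without each of the 3 replicates of 20 weeks, with adjusted p from 0.080 to 0.18. The others were thread number as a covariate (adjusted p = 0.10), the knockout-labelled libraries alone (adjusted p = 0.16) and the replicate block (adjusted p = 0.055). The WT call was lost under 1 of 22, the 6 libraries run with 8 threads (adjusted p = 0.35). Of the members, 0 of 9 were called with time in either genotype by edgeR or limma-voom, and 1, Jag1 in WT, by DESeq2; at an unadjusted p under 0.05 there were 2 in WT and 2 in knockout-labelled cells, namely Jag1 with Nrarp and Jag1 with Hes1. That threshold was passed by 13.3% of all genes in WT and 8.33% in knockout-labelled cells, against 2 of 9 members in each. Besides Jag1 and Hes1, the 2 times did not overlap for Notch1 in knockout-labelled cells, lower at 20 weeks, and for Rbpj in WT, higher at 20 weeks as for 10.3% of all genes. In the WT libraries time and the Ddx3y signal cannot be told apart.

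Markers of other cells were read beside Jag1, since stromal, endothelial and dendritic cells can carry Jagged-1. The 10 stromal markers summed to 6.97 to 11.1 CPM in WT and 10.7 to 12.4 CPM in knockout-labelled libraries at 8 weeks, and Col3a1 was at 0 in both groups. At 20 weeks they summed to 5.86 to 11.1 CPM in WT and 8.07 to 12.7 CPM in knockout-labelled libraries. Of 9 endothelial markers Tek, Lyve1, Prox1 and Cldn5 were at 0 in all 12 libraries; the summed level, 112 to 156 CPM, was mostly Pecam1, which was at 109 to 154 CPM in every group. The 6 epithelial markers summed to 3.46 to 9.14 CPM over all libraries, most of it Krt18. Cdh1, which encodes E-cadherin, was wholly lower in knockout-labelled libraries at both times, as Jag1 was. It was at 0.87 to 1.52 CPM in WT and 0 to 0.70 CPM in knockout-labelled libraries at 8 weeks, and at 1.01 to 3.04 CPM and 0.19 to 0.60 CPM at 20 weeks. Of the 104 marker genes read it was the only one wholly lower at both times, beside 0.374% of all genes. A count of 1 of 104 is near the background and is not a result about epithelial cells. Cdh1 group means did not have the order of Jag1: in WT the mean was 1.17 CPM at 8 weeks and 2.08 CPM at 20 weeks. Every other epithelial marker overlapped between genotypes at both times, as did the sum of the list. Mean Krt18 was higher in knockout-labelled cells than in WT at both times.

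The 10 dendritic cell markers summed to 9762 to 20199 CPM in WT and 8252 to 14304 CPM in knockout-labelled libraries at 8 weeks. At 20 weeks they summed to 6652 to 9333 CPM in WT and 7809 to 10478 CPM in knockout-labelled libraries, and the genotypes overlapped at both times. Nearly all of the sum was Cd74, H2-Aa and H2-Ab1, of antigen presentation; Clec9a was at 0 in all 12 libraries and Itgax reached 0.46 CPM. Within WT at 8 weeks the library with the highest sum, replicate 2, also had the most Jag1, and the library with the lowest sum, replicate 3, the least. In each of the other groups the library with the highest sum had the least Jag1. The part of dendritic cells in the spread of Jag1 was not tested. T cell markers summed to 802 to 884 CPM in WT and 498 to 874 CPM in knockout-labelled libraries at 8 weeks, and to 794 to 921 CPM and 635 to 798 CPM at 20 weeks. Their group means had the order of Jag1, though the genotypes overlapped at both times. The means were 856 CPM (SD 46.4, n = 3) in WT at 8 weeks and 848 CPM (SD 65.8, n = 3) in WT at 20 weeks. In knockout-labelled cells they were 746 CPM (SD 215, n = 3) at 8 weeks and 698 CPM (SD 87.8, n = 3) at 20 weeks. Nearly all of the sum was Trbc1, Trbc2 and Cd3g, and of these only Cd3g had that order. Cd3g lies at chr9:44969572-44980431, near Thy1 at chr9:44043384-44048579, whose CD90.1 form marks the WT donors. The part of donor strain sequence in the Cd3g level was not tested. Of the 12 marker lists, ILC2 markers included, the T cell list was the only one whose sum had that order. The 9 B and plasma cell markers overlapped between genotypes at 8 weeks, with 173 to 381 CPM in WT and 191 to 589 CPM in knockout-labelled libraries. At 20 weeks they were wholly lower in knockout-labelled libraries, with 167 to 201 CPM against 212 to 336 CPM in WT. Igkc, the kappa light chain gene, was then at 32.6 to 51.9 CPM in WT and 2.68 to 6.42 CPM in knockout-labelled libraries, and Jchain, of secreted antibody, at 5.60 to 15.8 CPM and 0.45 to 1.73 CPM. The part of T cells, B cells and Cdh1-expressing cells in the Jag1 difference was not tested.

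The genes whose pattern over the 12 libraries was most like that of Jag1 were picked by the smallest root mean square difference of log2(CPM + 0.5), each gene centred on its own mean. They were Fam219b (0.55), Dapk2 (0.70), Ubash3b (0.76), Zpr1 (0.83) and Krt80 (0.88), against 1.65 for the median of 14430 genes. The first 4 of these lie on chromosome 9 and Krt80 on chromosome 15, while Jag1 is on chromosome 2. Thy1, whose CD90.1 form marks the WT donors, is on chromosome 9 too, at chr9:44043384-44048579. Ubash3b begins at base 41011098 of that chromosome, Zpr1 at 46273064, Fam219b at 57537528 and Dapk2 at 66158223. The part of donor strain sequence around Thy1 in the patterns of these 4 genes was not tested. Fam219b was at 333 ± 181, 61.8 ± 26.3, 112 ± 21.1 and 41.7 ± 2.69 CPM (SD, n = 3) in WT and knockout-labelled cells at 8 weeks and WT and knockout-labelled cells at 20 weeks. Dapk2, which encodes a death-associated protein kinase, was at 7.95 ± 1.38, 1.38 ± 0.65, 2.95 ± 0.55 and 0.50 ± 0.22 CPM (SD, n = 3) in the same order. Both had the group order of Jag1, as did Ubash3b, at 115, 29.9, 87.4 and 26.3 CPM in the same sequence of groups. Zpr1 and Krt80 did not. These genes were picked for likeness to Jag1, so a shared order follows largely from the pick and adds no support. Of the other members, Notch1 ranked 1301, Dtx1 2063, Hes1 2532 and Notch2 4321 of 14430, with a smaller difference than the median gene, and Rbpj, Maml1, Nrarp and Adam10 ranked 8825 to 13512.

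Within 2 Mb of Jag1 on chromosome 2 there were 7 tested genes. For genotype averaged over both times, 0 of the 7 were called by edgeR, DESeq2 or limma-voom. In edgeR 1 of them, Slx4ip, passed an unadjusted p of 0.05. Over all genes edgeR called 0.222% in that contrast, and 3.71% passed the unadjusted threshold. A count of 0 of 7 called is therefore near the background and is not a result about the region. The 4 of the 7 genes above 0 in all 12 libraries had fitted differences of -0.54 to 0.56. Slx4ip, 9505 bases away on one side, was at 5.48 to 19.6 CPM with a difference of 0.56 (SE 0.24, adjusted p = 1.00), opposite in sign to Jag1. Btbd3, the nearest tested gene on the other side, was at most 1.72 CPM, with a difference of 0.78 (SE 1.32). Jag1 lies 35.4 Mb from Rag1 on the same chromosome.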

How the data were processed

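RNA was sequenced from sorted, IL-33-expanded ILC2s in 12 libraries, 4 groups of 3, grouped by the labels' genotype and time. Per the file headers, sailfish 0.6.3 with a k-mer length of 20 and an index of Ensembl release 76 gave the deposited values: for every transcript an expected count, in reads, and a TPM, which is scaled for length and depth. Other tools named in the submitters' processing notes are STAR 2.0.4b, featureCounts 1.4.5, Subread and bcl2fastq. A k-mer method loses reads with strain variants and divides reads shared by transcripts or paralogs. Sailfish ran with 24 threads on 6 libraries, among them all 3 knockout-labelled ones of 20 weeks, and with 8 threads elsewhere, per the file headers. The labels give the later time as 20 weeks, which was used, and the series text as 12.

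Of 86127 transcripts, 83739 (97.2%) had an identifier in GENCODE M21 (GRCm38) and were added up into 29542 genes; the rest held 1.01% to 1.54% of reads. Counts were rounded, filtered with filterByExpr, scaled by TMM and fitted with edgeR 4.0.16 (quasi-likelihood, 4 group means, 14431 genes, biological coefficient of variation 37.7%; R 4.3.3). Calls are genes with an adjusted p (Benjamini-Hochberg) under 0.05 over all 14431 genes in each of 6 contrasts, which share libraries. Intervals are at 95%, SEs come from the fit, and floors of 3 counts cover counting error only. Jag1 genotype differences are means of log2(CPM + 0.5) without a test. Transcript shares were set against transcripts with at least 20 reads of the gene per library and a mean share of 5% to 95%. Promoters are RefSeq windows (GRCm38.p6) from 250 bases before the start, with 9 of 10 members matched. The fit was tested on simulated data. Alternatives were limma-voom (limma 3.58.1), DESeq2 1.42.0 and the settings named at the end.

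The members and lists were chosen with earlier results of these data known. Named genes were the 10 members, pathway or lymphoid genes called in any contrast and the 3 with the smallest p otherwise, the other ligands and receptors, the 5 genes most like Jag1, its nearest tested neighbours and 4 label checks; Gata3, Tcf7, Lfng, Mfng, Rfng, Hes5, Hey2, Maml2 and Hes7 are named besides.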

Additional observations from a re-analysis of the deposited data

How the results depend on the processing

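The Jag1 difference at 8 weeks ranged from -3.42 to -2.57 when a library was left out and stayed within its spread in all other settings. At 20 weeks it ranged from -2.89 to -2.39 and moved to -1.94 with a pseudocount of 2 and to -1.89 on deposited TPM, where the same pseudocount weighs more. The Jag1-201 share ranged from 99.9% to 100%. Over the 6 contrasts, 236 of 252 recomputed counts of called members and pathway genes stayed as reported. Among members with time in WT, DESeq2 called 1, Jag1, and leaving out a library gave 0 to 1. Among other pathway genes with time in WT the count of 1, Bhlhe40, became 0 with no filter, with the replicate block, with thread number as a covariate, on the 6 libraries of 8 threads and on WT alone, and 0 to 2 when a library was left out; DESeq2 called 1 in knockout-labelled cells. The causes were not tested.

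The small averaged differences changed sign, none of them called. Without both 8-week libraries that stood apart they were 0.17 for Notch1, -0.020 for Notch2, -0.13 for Rbpj, 0.027 for Hes1, 0.10 for Dtx1, 0.13 for Maml1 and -0.34 for Adam10, and the Jag1 interaction was -0.039. With the thread covariate Notch1 was at 0.0098 and Maml1 at 0.012, with limma-voom Hes1 was at 0.014 and Dtx1 at 0.037, and Dtx1 was at 0.0075 with counts from TPM. Leaving out a library gave -0.17 to 0.12 for Notch1, -0.19 to 0.44 for Notch2, -0.092 to 0.090 for Rbpj, -0.20 to 0.17 for Hes1, -0.17 to 0.088 for Dtx1, -0.28 to 0.057 for Maml1, -0.14 to 0.38 for Adam10 and -0.21 to 0.73 for the Jag1 interaction.

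Same-numbered libraries of the genotypes deviated together in part, with correlations of 0.074 to 0.289 and 4 of 6 pairs above 0.1. Each of the 12 libraries correlated best with its own number in the other genotype at the same time, a hint of pairing from the data only. Both genotypes grew in the same hosts, but no label ties a number to a host. The main fit therefore used no pairs, and its p-values, SEs and intervals leave any such pairing out. With the replicate block Dtx1 was at 0.0064, the Jag1 differences kept their values with SEs of 0.57 and 0.20, and calls over all genes went from 32 to 19 in the averaged contrast.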
